A study of Mus musculus with 6 samples.

Results

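Genes of the cornified envelope were followed in mouse tracheal epithelium 48 h after injury by SO2 (48 hpi) and in control epithelium. The 10 genes are Sprr1a, Sprr1b, Sprr2d, Sprr2f, Sprr3, Ivl, Cnfn, Tgm1, Scel and Lor, out of 18193 genes on the array with a probe set of their own. A probe set is a group of short oligonucleotides that reads 1 transcript or several similar ones. Every probe set annotated to exactly 1 of these symbols was taken, which gave 14 of the 45037 probe sets tested. The 48 hpi group holds 3 arrays and the control group holds 3 arrays, each from a pool of 4 tracheas of male C57Bl/6 mice, aged 8 to 12 weeks according to the methods. The 48 hpi mice had breathed 500 ppm SO2 for 4 h and the control mice were uninjured, with no genetic modification named in either group. In both groups the epithelium was peeled off after digestion with dispase, treated with trypsin and depleted of CD45+ leukocytes. Each pool is therefore a mixture of all cells that this preparation leaves, and in such bulk samples fewer cells of a type and less RNA per cell cannot be told apart.

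The cornified envelope is the tough protein shell that replaces the plasma membrane of keratinocytes when they complete their differentiation in stratified squamous epithelia such as skin, mouth and esophagus. Soluble precursors, among them involucrin, loricrin and the small proline-rich proteins of the SPRR family, are joined to each other and to desmosomes by transglutaminases, which form bonds between glutamine and lysine residues. The healthy trachea is lined by a pseudostratified epithelium of basal, secretory and ciliated cells and forms no such shell, while SPRR transcripts are known to be made by many simple epithelia under stress and during repair.

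Most of the 10 genes lie together in the epidermal differentiation complex on mouse chromosome 3, where neighbouring genes gave very different values on the arrays. The bases in front of their starts are shown first, and the part of these bases in the values was not tested. The last 150 bases before the annotated start are printed for the gene with the strongest change (Sprr1a), its neighbours Sprr3 and Sprr1b, the precursors Ivl and Lor, and Cnfn, which lies on chromosome 7. Sequences and coordinates are from RefSeq (GRCm38.p6), 5′ to 3′ on the strand of the gene, and capitals mark matches to the letters searched.
Sprr1a (chr3:92485882-92486031, minus strand): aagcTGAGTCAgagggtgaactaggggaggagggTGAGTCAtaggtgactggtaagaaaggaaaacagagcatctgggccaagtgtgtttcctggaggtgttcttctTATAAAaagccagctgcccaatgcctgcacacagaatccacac
Sprr1b (chr3:92438780-92438929, minus strand): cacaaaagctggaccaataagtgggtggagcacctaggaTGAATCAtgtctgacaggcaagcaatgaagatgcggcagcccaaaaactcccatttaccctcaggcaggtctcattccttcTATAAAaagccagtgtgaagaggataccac
Sprr3 (chr3:92458721-92458870, minus strand): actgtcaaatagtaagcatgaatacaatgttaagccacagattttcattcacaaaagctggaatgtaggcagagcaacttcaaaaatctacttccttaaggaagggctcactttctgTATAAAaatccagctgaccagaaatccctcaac
Ivl (chr3:92573736-92573885, minus strand): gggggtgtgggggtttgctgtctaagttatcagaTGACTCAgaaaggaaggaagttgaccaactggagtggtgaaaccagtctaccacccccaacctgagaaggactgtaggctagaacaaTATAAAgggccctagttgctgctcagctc
Lor (chr3:92083143-92083292, minus strand): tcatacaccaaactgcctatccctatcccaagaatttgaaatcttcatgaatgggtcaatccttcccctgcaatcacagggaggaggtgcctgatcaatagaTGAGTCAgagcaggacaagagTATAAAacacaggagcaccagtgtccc
Cnfn (chr7:25369725-25369874, minus strand): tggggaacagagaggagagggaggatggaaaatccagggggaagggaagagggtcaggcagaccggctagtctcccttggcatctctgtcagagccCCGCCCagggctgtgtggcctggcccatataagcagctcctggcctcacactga

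The capitals TGANTCA (any base at N) are the recognition letters of AP-1, a dimer of Fos and Jun family proteins, the capitals TATAAA are the TATA box at which transcription complexes assemble, and CCGCCC is the reverse complement of the GC box GGGCGG. All searches covered both strands of the 250 bases before each start. TGANTCA was found in 7 of the 11 windows of the 10 genes (Tgm1 has more than 1 annotated start) and in 6.75% of all 32851 windows of the same length. Sprr1a held 2 matches, at 146 to 140 and at 116 to 110 bases before the start. Ivl, Lor, Scel, Sprr1b, Sprr2d and Sprr2f held 1 match each, and none was found for Sprr3, Cnfn and Tgm1. TATAAA was also found in 7 of the 11 windows, those of the 7 genes on chromosome 3, against 12.4% of all windows. GGGCGG was found in 2 windows, of Cnfn and Tgm1, against 32.7% of all windows. The E box CACGTG (6.02% of all windows) and the letters AACCGGTT of grainyhead-like factors (0.116%) were found in none of the 11. No match overlapped a match to another motif, and a match is a description of the letters, not of binding.

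RMA (robust multi-chip analysis) values are on a log2 scale, on which a difference of 1 is a doubling. As a measure of background, 81 probe sets that read odorant and pheromone receptors (of the olfactory, vomeronasal or trace amine families) were used, since the trachea is not known to make them. Their group means had a 95th percentile of 4.81 at 48 hpi and 4.93 in control epithelium, and a probe set above it is called above background. By this measure 10 of the 14 envelope probe sets were above background at 48 hpi and 8 in control epithelium. A probe set was called changed at an adjusted p below 0.05 in limma, with p-values adjusted by the Benjamini-Hochberg method over all 45037 probe sets. At 48 hpi 7 of the 14 probe sets were called higher and 0 lower, while 14.5% of all probe sets were called higher and 13.9% lower. An unadjusted p below 0.05 with a lower value was found for 1 of them, a probe set of Lor. Their median log2 change was 0.32, beside -0.03 over all probe sets. The 3 arrays at 48 hpi lay all above the 3 control arrays for 7 of the 14 probe sets and for 21.0% of all probe sets. With 3 arrays per group an exact two-sided permutation test cannot give a p below 0.1, so the p-values rest on the spread that limma shares across probe sets.

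**Figure D1:**
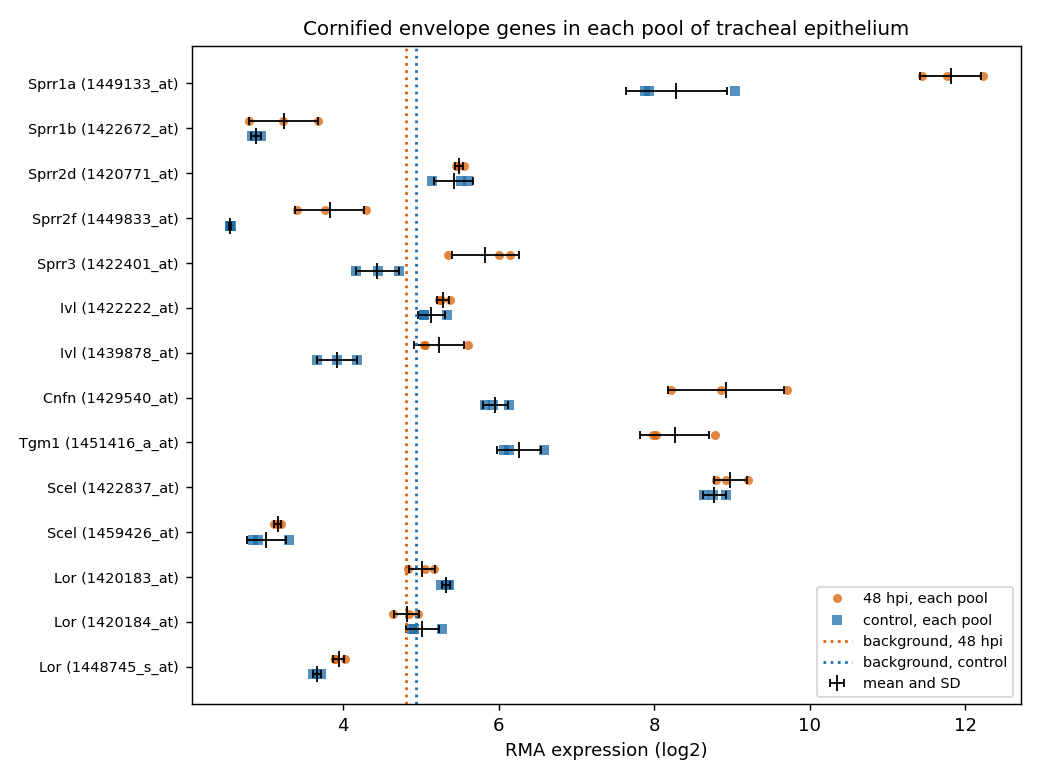
Log2 RMA values of the 14 probe sets of the cornified envelope genes in each pool of tracheal epithelium, with 48 hpi pools as orange circles above control pools as blue squares, black bars for the mean and SD (n = 3), and dotted lines for the background of each group (4.81 at 48 hpi and 4.93 in control epithelium). The circles of Sprr1a, Cnfn and Tgm1 stand far to the right of their squares, while those of Scel and Sprr2d lie on top of them.

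Among the 5 SPRR genes with a probe set of their own in this group of 10, Sprr1a changed most. SPRR proteins are short, proline-rich crosslinking precursors that bridge other envelope proteins, and Sprr1a is also known as a gene switched on in injured and stressed tissues outside the skin. Sprr1a read 11.44, 11.76 and 12.23 in 48 hpi pools, against 9.04, 7.88 and 7.94 in control pools (log2). The groups did not overlap, with a gap of 2.40 between the lowest 48 hpi pool and the highest control pool. The mean was 11.81 ± 0.40 at 48 hpi and 8.29 ± 0.65 in control epithelium (SD, n = 3 each), a log2 change of 3.52 (SE 0.32, adjusted p = 0.00023 in limma), or 11.5-fold (95% confidence interval 6.90 to 19.2). Sprr1a ranked 54 of 45037 probe sets by the size of its rise, and all 81 receptor probe sets lay below it in both groups. Control replicate 1 stood above the other control pools, and against the control mean each 48 hpi pool was higher by 8.91-, 11.1- and 15.4-fold.

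Sprr3, a longer family member typical of the esophagus and other internal squamous epithelia, also rose. It read 6.15, 5.34 and 6.00 in 48 hpi pools, against 4.71, 4.16 and 4.45 in control pools. All 48 hpi pools were above background and above the control pools, and the control mean of 4.44 ± 0.28 was within background. The log2 change was 1.39 (SE 0.22, adjusted p = 0.00259 in limma). Counted from the background of the control group, because control epithelium has only a bound, Sprr3 was at least 1.86-fold higher at 48 hpi. By an equal-variance test of each probe set on its own, which stands in for the epithelial part of the analysis of variance in the methods with a Benjamini-Hochberg adjustment added here, its adjusted p was 0.0521 in place of the limma value.

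Sprr2f and Sprr1b stayed at the level of receptor probe sets. Sprr2f, of the SPRR2 subfamily, read 3.77, 3.41 and 4.29 in 48 hpi pools, against 2.56, 2.54 and 2.54 in control pools. It was called higher (log2 change 1.28, SE 0.20, adjusted p = 0.0022 in limma), with 57 of the 81 receptor probe sets below it at 48 hpi and 9 below it in control epithelium. Both group means were within background, so no fold is given. Sprr1b, the close relative of Sprr1a, read 3.23, 2.79 and 3.68 in 48 hpi pools, against 2.95, 2.82 and 2.87 in control pools. Its groups overlapped (log2 change 0.35, 95% confidence interval -0.11 to 0.81, adjusted p = 0.238 in limma). Without 48 hpi replicate 2 its change was 0.57 and was called (adjusted p = 0.0345 in limma).

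Sprr2d, another SPRR2 gene, was above background in both groups and did not pass the test. It read 5.55, 5.46 and 5.47 in 48 hpi pools, against 5.52, 5.61 and 5.14 in control pools. The groups overlapped and the log2 change was 0.07 (95% confidence interval -0.23 to 0.37, adjusted p = 0.73 in limma), a fold between 0.855 and 1.30. The sign turned without control replicate 3, where the change was -0.07. SPRR2 genes are close copies of each other, and how far the probes of 1 gene also read another was not tested.

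A further 3 probe sets, each annotated to several Sprr2a copies and singled out after their values were seen, cannot be assigned to 1 gene and are not counted among the 14. The brightest, annotated to Sprr2a1, Sprr2a2 and Sprr2a3, read 13.48, 13.54 and 13.68 in 48 hpi pools, against 9.83, 9.71 and 9.78 in control pools. It was higher by 3.79 (SE 0.09, adjusted p = 1.87e-06 in limma), or 13.9-fold, rank 31 of 45037. The others, annotated to Sprr2a1 and Sprr2a2, had means of 13.14 and 6.20 at 48 hpi, against 9.11 and 3.32 in control epithelium. The brighter of these was higher by 4.03 (SE 0.10, adjusted p = 1.87e-06 in limma). The dimmer was within background in control epithelium, and counted from background it was at least 2.41-fold higher (adjusted p = 4.01e-05 in limma). The groups did not overlap on any of these 3 probe sets.

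The other precursors differed from gene to gene. Cnfn encodes cornifelin, a small cysteine-rich component of the envelope that is joined to loricrin and involucrin. It read 8.86, 8.22 and 9.71 in 48 hpi pools, against 6.13, 5.93 and 5.82 in control pools. The groups did not overlap, the 48 hpi pools spread over more than 1 log2 unit and the control pools lay close together. The mean was 8.93 ± 0.75 at 48 hpi and 5.96 ± 0.16 in control epithelium (SD, n = 3 each), a log2 change of 2.97 (SE 0.32, adjusted p = 0.000468 in limma) or 7.84-fold (95% confidence interval 4.69 to 13.1). Cnfn ranked 144 of 45037, with 81 of the 81 receptor probe sets below it at 48 hpi and 80 in control epithelium. Against the control mean, the 48 hpi pools were higher by 7.47-, 4.79- and 13.5-fold.

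Ivl, which encodes involucrin, the glutamine-rich precursor laid down early under the membrane, gave different answers on its 2 probe sets. The brighter by mean over all arrays read 5.24, 5.25 and 5.38 in 48 hpi pools, against 5.04, 5.04 and 5.33 in control pools. Its means lay close to background, 0.48 above it at 48 hpi and 0.20 above it in control epithelium. Here the groups overlapped (log2 change 0.15, 95% confidence interval -0.10 to 0.41, adjusted p = 0.348 in limma). The dimmer read 5.05, 5.04 and 5.61 in 48 hpi pools, against 3.92, 3.67 and 4.18 in control pools. Here the groups did not overlap, and Ivl was called higher by 1.31 (SE 0.19, adjusted p = 0.00149 in limma). The control mean of the dimmer probe set, 3.92 ± 0.25, was within background, and its 48 hpi mean was 0.43 above background. Counted from the control background, the dimmer probe set was at least 1.23-fold higher at 48 hpi. With the mean of both probe sets as 1 value per gene, Ivl was called higher by 0.73 (adjusted p = 0.00468 in limma).

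Lor encodes loricrin, the glycine-rich protein that makes up most of the envelope of the epidermis, and its 3 probe sets lay close to background in both groups. The brightest read 5.05, 5.16 and 4.83 in 48 hpi pools, against 5.36, 5.35 and 5.26 in control pools. All 48 hpi pools were below the control pools there, by 0.31 on average (SE 0.11), with an unadjusted p of 0.0205 and an adjusted p of 0.0659 in limma. The second read 4.64, 4.84 and 4.97 in 48 hpi pools, against 5.27, 4.91 and 4.88 in control pools, and these groups overlapped (log2 change -0.20, adjusted p = 0.319 in limma). The dimmest, whose name carries the array's mark for probes shared by several transcripts, read 4.03, 3.90 and 3.90 in 48 hpi pools, against 3.66, 3.71 and 3.61 in control pools. It was called higher (log2 change 0.28, SE 0.09, adjusted p = 0.0448 in limma) at a level within background in both groups, and lost the call when any 1 of the 6 arrays was left out (adjusted p from 0.058 to 0.135).

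Scel encodes sciellin, a precursor that is joined to the envelope beneath the membrane and is also found in simple epithelia. It was above every receptor probe set in both groups and did not pass the test. Its brighter probe set read 8.93, 8.79 and 9.21 in 48 hpi pools, against 8.93, 8.75 and 8.64 in control pools. The groups overlapped, and the log2 change was 0.20 (95% confidence interval -0.10 to 0.50, adjusted p = 0.304 in limma), a fold between 0.933 and 1.42. The dimmer probe set lay within background, with 3.16 at 48 hpi and 3.01 in control epithelium.

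**Figure D2:**
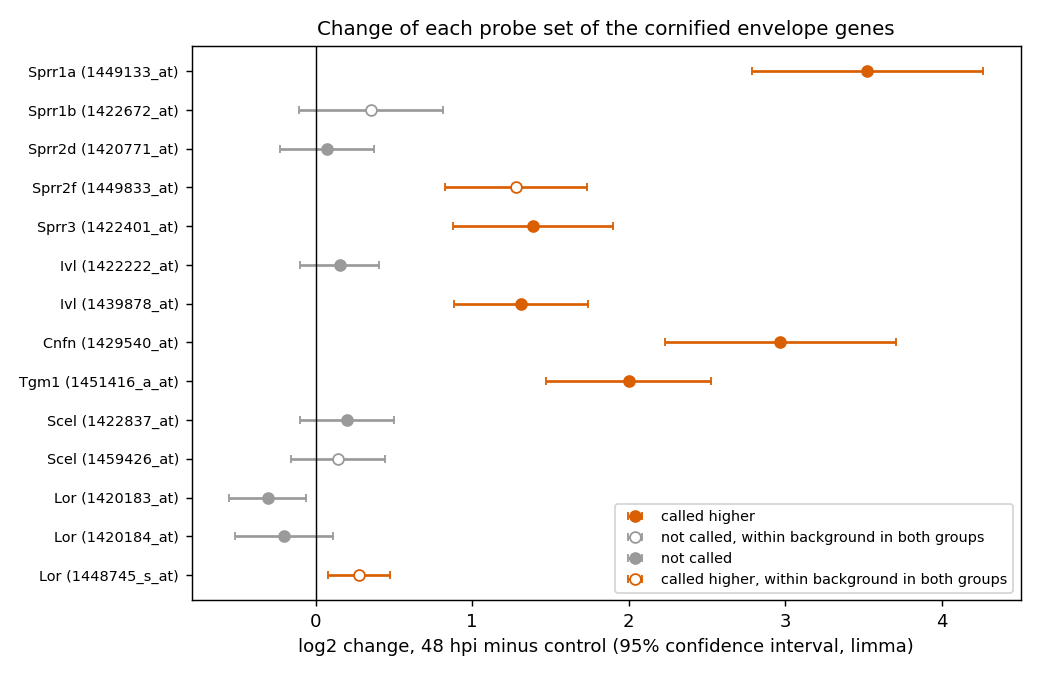
Log2 change (48 hpi minus control) of each probe set of the cornified envelope genes with its 95% confidence interval from limma, in orange where called higher and grey where not called, with open symbols for probe sets within background in both groups. Sprr1a (3.52), Cnfn (2.97) and Tgm1 (2.00) stand apart at the right, and the Ivl and Lor probe sets of 1 gene fall on different sides of the call.

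Tgm1 encodes transglutaminase 1, the membrane-bound enzyme that crosslinks the precursors. It read 7.99, 8.02 and 8.78 in 48 hpi pools, against 6.59, 6.07 and 6.13 in control pools. The groups did not overlap, with a gap of 1.40, and both groups were above background. The mean was 8.26 ± 0.45 at 48 hpi and 6.26 ± 0.28 in control epithelium (SD, n = 3 each), a log2 change of 2.00 (SE 0.23, adjusted p = 0.000606 in limma) or 4.00-fold (95% confidence interval 2.77 to 5.77). Against the control mean, the 48 hpi pools were higher by 3.30-, 3.39- and 5.72-fold, and Tgm1 ranked 367 of 45037.

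Read by gene, 7 of the 10 genes had a probe set called higher, and Sprr1b, Sprr2d and Scel had none. Ivl and Lor were called on a dimmer probe set alone. By the brightest probe set of each gene, 5 of 10 genes were called higher (50.0%) and 0 lower, while 18.4% of 18193 genes were called higher and 16.1% lower. Of the 7 probe sets called higher, those of Sprr1a, Cnfn and Tgm1 were above background in both groups, those of Sprr3 and Ivl at 48 hpi alone, and those of Sprr2f and Lor in neither group. Among the 81 receptor probe sets 1 was called higher and 1 lower (1.23% each).

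**Figure D3:**
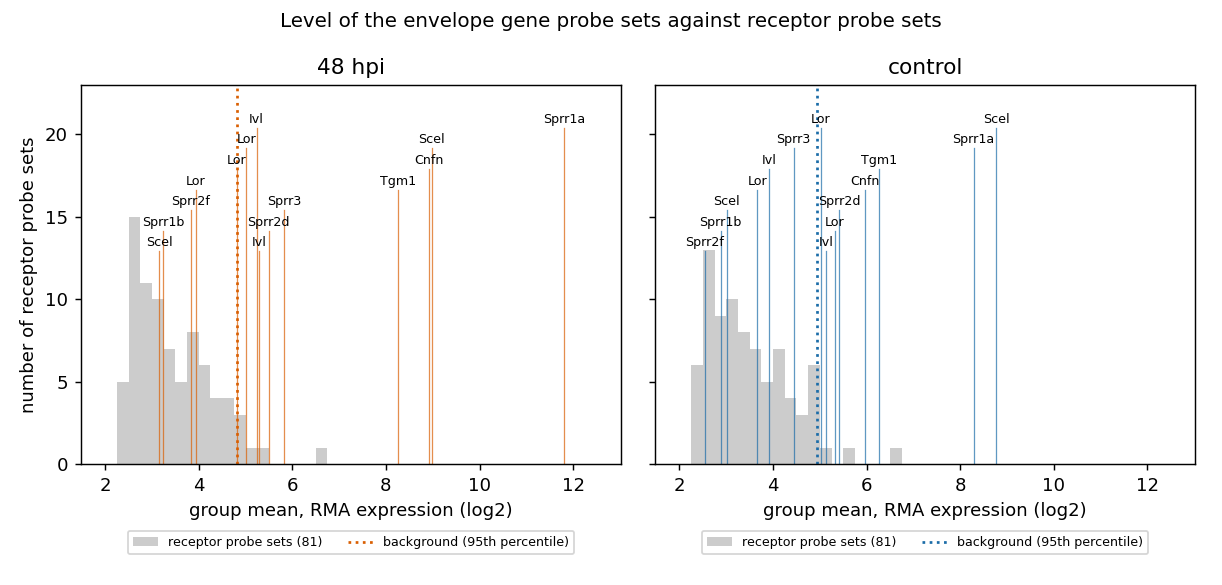
Group means (RMA expression, log2) of the envelope probe sets as labelled vertical lines over a histogram of the 81 receptor probe sets in grey, at 48 hpi on the left and in control epithelium on the right, with the 95th percentile of the receptors dotted. The height of a labelled line has no meaning. Sprr1a, Scel, Cnfn and Tgm1 stand clear of every receptor probe set at 48 hpi, while Sprr1a and Scel do so in control epithelium.

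The pools were not alike within a group. Among the 7 probe sets called higher, 48 hpi replicate 3 was the highest of its group in 5 and control replicate 1 the highest of its group in 5. No such count over all probe sets is given, so these counts are no result about the envelope genes. The same array, 48 hpi replicate 3, had the lowest mean level of the ciliated list (5.14, against 5.74 and 5.79 in the other 48 hpi pools) and of the secretory list (10.50, against 11.52 and 11.59), and it correlated with the others of its group at 0.990 and 0.992 over all probe sets, where those correlated at 0.996. Control replicate 1 had the lowest ciliated mean of its group (6.26, against 7.24 and 6.79 in the other control pools) and the highest mean of the keratin list described further on (7.67, against 7.15 and 7.07). The part of these differences in the values of the envelope genes was not tested. Without 48 hpi replicate 3 the log2 changes of Sprr1a, Cnfn and Tgm1 were 3.32, 2.58 and 1.74, and without control replicate 1 they were 3.90, 3.06 and 2.16, all of them called in limma. Sprr1a, Cnfn, Tgm1, Sprr3, Sprr2f and the dimmer Ivl probe set kept their call when any 1 array was left out.

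Along the epidermal differentiation complex some measured genes were called higher, some lower and others not at all. The cluster, taken from S100a1 to S100a10, holds 70 coding genes in RefSeq, of which 48 had a probe set of their own, 7 of them among the 10 genes described here. Of the other 41 genes, 6 were called higher and 6 lower, where 18.4% of all genes were called higher and 16.1% lower. For 41 genes these counts are not far from the shares of all genes and are no result about the neighbours. The median log2 change of the 41 was -0.01, and 16 of them were above background in at least 1 group. Sprr2a1, Sprr2a2 and Sprr2a3 are not among the 48, so the probe sets shared by these copies, which were higher, are not counted. Sprr2k, Sprr1b, Sprr3 and Sprr1a follow each other directly in the order of coding genes. Sprr2k was higher by 1.12 (8.03 ± 0.11 at 48 hpi and 6.91 ± 0.09 in control epithelium, SE 0.10, adjusted p = 0.000194 in limma), so that 3 of these 4 neighbours were called and Sprr1b was not. The other 3 genes with the smallest p in the cluster encode small calcium-binding S100 proteins, and S100 genes were called in both directions. S100a10, the partner of annexin A2, averaged 12.25 at 48 hpi and 11.33 in control epithelium (change 0.92, SE 0.09, adjusted p = 0.000356 in limma), S100a3 averaged 7.12 at 48 hpi and 5.53 in control epithelium (1.59, SE 0.17, adjusted p = 0.000466), and S100a4 averaged 9.47 at 48 hpi and 8.47 in control epithelium (1.00, SE 0.12, adjusted p = 0.000635). S100a1 and S100a13, named after their values were seen, were lower, S100a1 by 1.39 (SE 0.20, adjusted p = 0.00155 in limma) and S100a13 by 0.85 (SE 0.15, adjusted p = 0.00456).

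**Figure D4:**
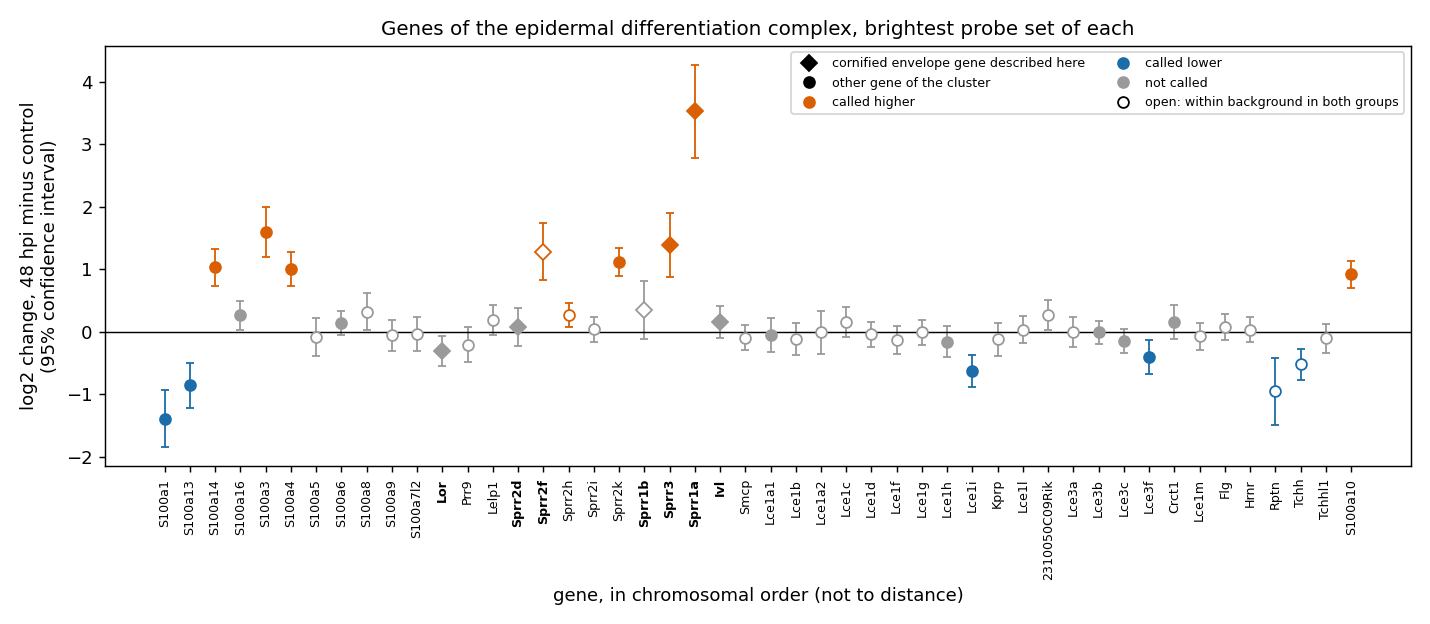
Log2 change (48 hpi minus control, 95% confidence interval) of the brightest probe set of the 48 measured genes of the epidermal differentiation complex, in chromosomal order and not to distance, with diamonds for the 7 envelope genes described here. The calls higher lie among the S100 genes at both ends and the Sprr genes in the middle, and the late cornified envelope (Lce) genes lie near 0 or below.

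The other genes of the pathway were read through 6 lists, each gene by its brightest probe set. The first held the remaining SPRR genes, the late cornified envelope (LCE) genes and the S100-fused proteins of the filaggrin family. It named 42 genes, of which 28 had a probe set of their own. Sprr2a1, Sprr2a2, Sprr2a3, Sprr2b, Sprr2e, Sprr2g and Sprr4 had none, so the probe sets shared by Sprr2a copies are not counted here. Of 28 measured genes 3 were called higher (10.7%) and 4 lower (14.3%), against 18.4% and 16.1% of all genes, and 8 were above background. For 28 genes these counts are not far from the shares of all genes and are no result about the list. With arrays shifted to equal hybridization controls 0 genes of the list were lower, and 1480 of all 45037 probe sets in place of 6267. Beside Sprr2k, Lce1i averaged 5.30 at 48 hpi and 5.92 in control epithelium (change -0.62, SE 0.11, adjusted p = 0.00465 in limma). Tchh (trichohyalin, of the hair follicle sheath) was lower by 0.52 and Rptn (repetin) by 0.95, both within background in both groups. Left out 1 at a time, 48 hpi replicate 1, control replicate 2 and control replicate 3 each brought this list to 1 gene higher and 2 lower, and 48 hpi replicate 3 brought it to 1 higher and 3 lower. Flg, which encodes filaggrin, had 2.42 at 48 hpi and 2.34 in control epithelium, below the medians of the receptor probe sets (3.25 at 48 hpi and 3.30 in control epithelium).

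Of 6 other measured transglutaminases 1 was called higher (16.7%) and 0 lower, against 18.4% and 16.1% of all genes. The share higher is near that of all genes and is no result about the list. The gene called was Tgm5, which also acts in keratinocytes, with 6.22 ± 0.21 at 48 hpi and 5.24 ± 0.26 in control epithelium (change 0.98, SE 0.16, adjusted p = 0.0026 in limma). Tgm3, which acts in skin, hair and esophagus, was within background in both groups (4.63 at 48 hpi and 4.81 in control epithelium). Tgm2, the widely expressed tissue transglutaminase, had a log2 change of 0.01 (11.92 at 48 hpi and 11.90 in control epithelium, adjusted p = 0.956 in limma).

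The list of scaffold and anchoring genes held desmosomal proteins, plakins and other proteins found at the envelope. Of 17 measured genes 8 were called higher (47.1%) and 0 lower, against 18.4% and 16.1% of all genes, with a median change of 0.31. Dsc2 (desmocollin 2, a desmosomal cadherin) averaged 9.81 at 48 hpi and 8.96 in control epithelium (change 0.85, SE 0.10, adjusted p = 0.000702 in limma). Sbsn (suprabasin, made above the basal layer of squamous epithelia) averaged 8.02 ± 0.49 at 48 hpi and 6.41 ± 0.18 in control epithelium (change 1.61, SE 0.23, adjusted p = 0.00146). Its genomic neighbours in the stratified epithelium secreted peptide complex were called higher too. Dmkn (dermokine) was higher by 1.68 (SE 0.32, adjusted p = 0.00538 in limma). Krtdap (keratinocyte differentiation-associated protein) averaged 6.11 ± 0.59 at 48 hpi and 4.60 ± 0.12 in control epithelium, within background there, and counted from background it was at least 2.26-fold higher (adjusted p = 0.00337 in limma). The plakin Ppl and the protein Evpl that pairs with it had changes of 0.44 (adjusted p = 0.038) and 0.31 (adjusted p = 0.0525) in limma. By the equal-variance test 3 genes of this list were called higher.

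Genes of the lipid layer, of proteolysis and of shedding were called in both directions, 4 of 22 higher (18.2%) and 3 lower (13.6%). These shares are close to those of all genes (18.4% higher and 16.1% lower) and are no result about the list. With arrays shifted to equal hybridization controls 0 of the list were lower, and 1480 of all 45037 probe sets in place of 6267. Cers3, the ceramide synthase of the very long chain lipids attached to the envelope, averaged 6.39 ± 0.33 at 48 hpi and 5.00 ± 0.27 in control epithelium (change 1.39, SE 0.19, adjusted p = 0.00126 in limma). Klk13, a kallikrein protease of squamous epithelia, was higher by 1.10 (SE 0.17, adjusted p = 0.00229). The membrane protease Prss8 was lower by 0.88 (SE 0.14, adjusted p = 0.00238) and Cyp4f39, which hydroxylates ultra-long fatty acids, was lower by 0.94 (SE 0.15, adjusted p = 0.00266).

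Of 11 keratins of squamous and stratified epithelia 6 were called higher (54.5%) and 1 lower (9.09%), against 18.4% and 16.1% of all genes. The lower call was absent with arrays shifted to equal hybridization controls, where 1480 of 45037 probe sets were lower, against 6267 as reported. Krt6a, the keratin of wounds and of activated keratinocytes, read 11.26, 11.23 and 11.85 in 48 hpi pools, against 9.44, 8.37 and 8.21 in control pools (change 2.77, SE 0.32, adjusted p = 0.000594 in limma). As for Sprr1a, its groups did not overlap, 48 hpi replicate 3 was highest in its group and control replicate 1 highest in its group. Krt6b was higher by 1.82 (SE 0.40, adjusted p = 0.0112), Krt17 by 1.34 (SE 0.22, adjusted p = 0.0031) and Krt4, a keratin of internal squamous epithelia, by 0.54 (SE 0.10, adjusted p = 0.00585). By the equal-variance test 2 keratins were called higher.

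The list of transcription factors and other regulators of squamous differentiation ran the other way, with 14 of 31 genes lower (45.2%) and 2 higher (6.45%). The remaining 15 were not called, among them Klf4, Ovol1, Zfp750 and Trp63. Of all genes 16.1% were lower and 18.4% higher. With arrays shifted to equal hybridization controls 2 genes of the list were lower. That scaling left 1480 of all 45037 probe sets lower, against 6267 as reported. Grhl3, a grainyhead-like factor that directs formation of the epidermal barrier, averaged 6.43 ± 0.37 at 48 hpi and 5.02 ± 0.29 in control epithelium (change 1.42, SE 0.21, adjusted p = 0.00175 in limma). Vdr, the vitamin D receptor, was lower by 0.88 (SE 0.09, adjusted p = 0.000378), Cebpb by 1.09 (SE 0.12, adjusted p = 0.00051) and Ets1 by 0.85 (SE 0.11, adjusted p = 0.00102), with 2 of the 4 probe sets of Ets1 called. The count of 14 lower genes was 8 without control replicate 2 and 7 without control replicate 3. Among the Fos and Jun family genes of the list, Jun was lower by 0.71, Junb by 0.99, Jund by 0.55 and Fos by 0.32, all called. Fosb (change -0.62) and Fosl1 (0.57) were not called. How these transcripts relate to the AP-1 letters before the envelope genes was not tested.

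**Figure D5:**
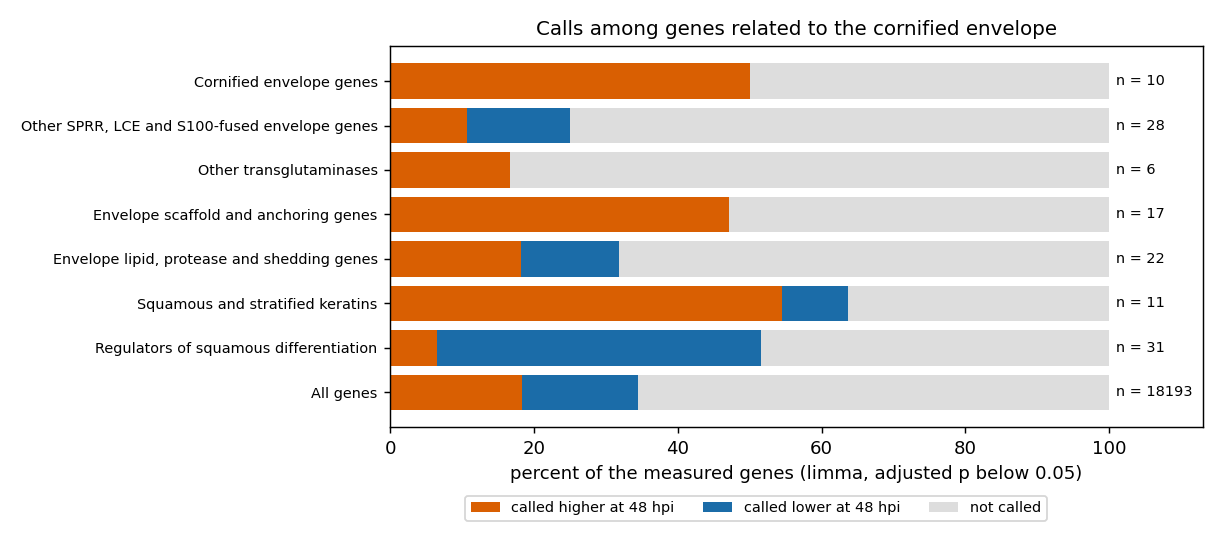
Percent of the measured genes of each list called higher (orange) or lower (blue) at 48 hpi by limma at an adjusted p below 0.05, each gene by its brightest probe set, with the number measured at the right and all 18193 genes in the bottom bar. The cornified envelope genes (50.0%), the scaffold genes (47.1%) and the keratins (54.5%) have the widest orange bars, and among the lists plotted the regulators have the widest blue bar (45.2%).

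Ciliated and secretory markers moved between the groups as well. The counts stand beside 18.4% of all genes called higher and 16.1% lower. Of 10 ciliated markers 0 were called higher and 9 lower, with a mean level per array of 5.14 to 5.79 at 48 hpi and 6.26 to 7.24 in control epithelium. The 1 not called was Foxj1, with 7.80 at 48 hpi and 7.84 in control epithelium (change -0.04, adjusted p = 0.96 in limma). Hydin, of the central apparatus of cilia, averaged 5.06 at 48 hpi and 6.18 in control epithelium (change -1.12, adjusted p = 0.00062 in limma). Spag6l had 4.35 at 48 hpi and 6.16 in control epithelium, and the dynein gene Dnah9 had 4.59 at 48 hpi and 6.17 in control epithelium, both within background at 48 hpi, while Dnah5 was within background in both groups. Of 10 secretory markers 0 were called higher and 7 lower (10.50 to 11.59 at 48 hpi and 12.22 to 12.30 in control epithelium), with Pigr lower by 2.46, Cldn10 by 1.77, Muc5ac by 1.03 and Scgb3a1 by 1.30. Of 10 basal markers 3 were called higher and 2 lower (10.12 to 10.27 at 48 hpi and 9.69 to 9.89 in control epithelium). For 10 genes these counts are not far from the shares of all genes and are no result about the list. Krt14 was higher by 3.18, Itga6 by 0.80 and Krt5 by 0.69, while Ngfr was lower by 0.66 and Pdpn by 0.35. Trp63, the basal cell transcription factor, had a log2 change of -0.34 (adjusted p = 0.119 in limma). All 10 basal and all 10 secretory markers were above background in both groups, as were 6 ciliated markers at 48 hpi and 9 in control epithelium. The part of these shifts in the rise of the envelope genes was not tested.

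Markers of other tissues and cells were read in the same way, beside the same shares of all genes (18.4% higher and 16.1% lower). For 10 genes each, the esophageal and skin counts are not far from these shares and are no result about the lists. Of 10 measured markers of esophagus, which airway hillock cells share, 3 were called higher and 2 lower, with a mean level of 7.58 to 7.64 at 48 hpi and 7.61 to 7.81 in control epithelium. Krt13, Krt4 and Mal were higher, while Lypd2 was lower by 1.49 and Pax9 by 0.75, and Tgm3 and Dsg1a were within background in both groups. Of 10 skin markers 1 was called higher (Krtdap) and 1 lower (Krt1), with mean levels of 4.64 to 4.72 at 48 hpi and 4.63 to 4.79 in control epithelium, and Flg, Krt2 and Dsg1a lay below 3 in both groups. Ptprc, which encodes CD45, had 2.83 at 48 hpi and 3.04 in control epithelium, within background. Of 11 leukocyte and macrophage markers 1 was called higher (Coro1a, within background in both groups) and 2 lower (Csf1r by 0.84 and Lyz2, which airway epithelium also makes, by 3.14), and of 6 neutrophil, 4 platelet and 5 endothelial markers 0 were called. Fibroblast (7 measured), cartilage (7) and thyroid (4) markers had 1 call lower each and 0 higher. These were Dcn (lower by 1.85), Chad (lower by 2.68) and Tshr, which was within background in both groups. The fibroblast list as a whole had a median log2 change of 0.30. Its mean level was 4.87, 5.62 and 4.88 in 48 hpi pools, against 5.03, 5.06 and 4.99 in control pools. The part of these markers in the values of the envelope genes was not tested.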

How the data were processed

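The authors hybridized RNA, amplified with MessageAmp Premier, to the Affymetrix GeneChip Mouse Genome array and normalized it by RMA in Partek Genomics Suite 6.5; the submitters' processing notes also name Affymetrix Expression Console 1.1. The deposited values are therefore on a log2 scale, from 2.01 to 14.6, with no detection calls. Array medians were 4.88, 4.89 and 4.91 at 48 hpi, and 4.98, 4.98 and 4.99 in control epithelium. The methods state RMA for each data set, without saying whether 1 data set held the mesenchymal arrays, not analysed here, as well. RMA aligns the distributions of arrays, though the medians here were all lower at 48 hpi. A change is therefore relative to the other probe sets of an array. With a common median 8068 probe sets were called higher and 4522 lower, against 6512 and 6267 as reported.

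Of 45101 probe sets 64 controls were left out. Of the 45037 tested, 34945 have 1 gene symbol, 932 several and 9160 none in the platform annotation, and 34741 of the first matched RefSeq genes of GRCm38.p6 by Entrez ID, with 0 symbols changed. The 6 arrays were compared with limma 3.58.1 (lmFit, eBayes) in R 4.3.3 over all 45037 probe sets, without a block, by Benjamini-Hochberg adjusted p below 0.05. The spread between 3 arrays per group limits the precision. The methods' analysis of variance across both tissues needs the mesenchyme and was replaced by this fit, with an equal-variance test of each probe set as an alternative (Benjamini-Hochberg adjusted, a step the methods do not have). The test was checked on simulated data.

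All 10 genes are named with every probe set. In lists of 8 or fewer measured genes every called gene is named, in longer ones the 4 with the smallest p among those called, and along the gene cluster the 4 other genes with the smallest p; further genes were named after their values were seen. The genes and lists were chosen with earlier results of these data known. Alternatives were other variance estimates, the equal-variance test, other scalings, other choices of probe set, a filter on dim probe sets, a replicate block, array weights, leaving out each array, stricter thresholds and stricter backgrounds. Promoter windows were searched and figures drawn in Python 3.11.15 with matplotlib 3.10.9.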

Additional observations from a re-analysis of the deposited data

How the results depend on the processing

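Under the alternatives that tested all 14 envelope probe sets 6 to 8 were called higher. Over all 45037 probe sets the calls higher ranged from 1740 to 8068 under these alternatives. With fewer tested, 5 of 10 were higher with 1 probe set per gene or with dim probe sets left out, 6 of 10 with the mean of the probe sets per gene and 6 of 13 without x and s probe sets. Beside these, 3527 of all 18193 genes were higher with 1 probe set per gene, and 6497 of 24119 probe sets without dim ones. The mean per gene gave 3314 of 18193 genes, and leaving out x and s probe sets gave 5343 of 40508. Of all values of an envelope probe set under an alternative, 252 of 271 kept their direction and their side of the threshold. The count of lower probe sets was 1 with dim probe sets left out, where Lor at -0.31 reached an adjusted p of 0.0454 in limma over 24119 probe sets. Against the 99th percentile of the receptors 5 envelope probe sets were above background at 48 hpi and 4 in control epithelium, and against the highest receptor 4 at 48 hpi and 2 in control epithelium. With arrays shifted to equal hybridization controls the brighter Lor probe sets turned to 0.037 and 0.14 and Sprr1b was called at 0.70, but that scaling moves the median change of all probe sets to 0.32 from -0.03. With the mean of the probe sets per gene Lor, called on its dimmest probe set, turned to -0.077. Sprr2d ranged from -0.068 to 0.17 over the left-out arrays. Causes were not tested.

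The replicate numbers give no pairing in the labels. Deviations of arrays with the same number correlated at 0.204, 0.0824 and 0.193, each array correlating best with its own number, which is a hint from the data alone. With the replicate block 6533 probe sets were higher and 7019 lower, against 6512 and 6267 without it, and among the envelope probe sets the dimmest of Lor lost its call at 0.28 (adjusted p = 0.0712 in limma). Over all probe sets, calls were 4711 higher and 2948 lower by the equal-variance test, 4409 and 2971 at an adjusted p below 0.01, and 1740 and 1293 with a log2 change of at least 1. The share of calls that were higher was 51.0% as reported, 64.1% with a common median, 84.5% with equal hybridization controls and 61.5% by the equal-variance test. Among the lists, the scaffold genes higher were 5 at an adjusted p below 0.01, the keratins higher 3, and the regulators lower 7, or 6 by the equal-variance test. The precision rests on 3 arrays per group, and values near the receptor level have no detection calls.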
